A study of Mus musculus with 53 samples.

Results

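The nuclear-encoded subunits of the respiratory chain were taken as every protein-coding gene whose symbol begins with Ndufa, Ndufb, Ndufc, Ndufs, Ndufv, Uqcr, Atp5, Cox4i, Cox5, Cox6, Cox7 or Cox8, together with Sdha, Sdhb, Sdhc, Sdhd and Cyc1. Assembly factors named Ndufaf were left out. A mean of at least 5 CPM, that is counts after scaling the gene counts of each library to a total of 1000000, was asked for in each of the 2 brain regions. Of 56504 gene identifiers counted in either region, 87 protein-coding ones carried such a symbol and 71 passed, and all 71 could be tested in every comparison. They comprise 34 genes of complex I, 4 of complex II, 8 of complex III, 11 of complex IV and 14 named for ATP synthase.

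C57BL6/J mice were killed at postnatal day 119, and RNA of 2 regions, the central amygdala (CeA) and the medial part of the prefrontal cortex (mPFC), was read by 3′-biased sequencing. The mice ate control chow or chow with 1200 ppm PLX5622, an inhibitor of the receptor that microglia need to survive, for 28 days before the ethanol phase. Dependent mice went through 4 weeks of chronic intermittent ethanol with drinking sessions that offered 15% ethanol in one of a pair of bottles, and were killed 24 hours after their last exposure. For non-dependent mice, the drinks offered are not stated by the labels. The labels number the mice, so each library stands for 1 animal of a region, and p-values measure the spread between such libraries. The CeA gave 6 libraries from non-dependent mice on control diet, 4 from non-dependent mice on PLX5622, 5 from dependent mice on control diet and 4 from dependent mice on PLX5622. The mPFC gave 7, 9, 9 and 9 libraries in the same order. Fresh dissection and a HiSeq 2500 were used for the mPFC, punches of 300 µm frozen slices and a NovaSeq 6000 for the CeA, so brain region, dissection and instrument cannot be told apart.

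Electrons from NADH enter the chain at complex I, and those from succinate at complex II, which is also an enzyme of the tricarboxylic acid cycle. Complex III passes them to cytochrome c and complex IV to oxygen, and ATP synthase uses the resulting proton gradient to make ATP. A few catalytic subunits are encoded in mitochondrial DNA, and all the others, including every gene described here, are nuclear genes whose products are imported. Neurons rely heavily on this pathway for the ATP that firing and synaptic transmission consume.

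Levels in CPM are scaled by the trimmed mean of M values (TMM) of edgeR, except those set against the membership threshold, which are not scaled. Counts in genes ran from 1062443 to 1968971 per CeA library and from 1531574 to 2607438 per mPFC library, of which 8486 to 16723 and 12869 to 21894 lay in the 71 genes. The summed level of 12 microglial markers was 0.0343% to 0.0563% of gene counts in the CeA of mice on control diet and 0.00282% to 0.00548% on PLX5622. In mPFC the ranges were 0.0368% to 0.0466% and 0.00302% to 0.0106%. In such bulk tissue, fewer cells of a type and less RNA per cell cannot be told apart. All 8 markers of central amygdala and striatal neurons were higher in CeA than in mPFC, although Slc17a7, a marker of cortical excitatory neurons, stood at 283 ± 55.8 CPM (SD, n = 19) in CeA and 276 ± 18.7 (SD, n = 34) in mPFC. Ttr, a marker of choroid plexus, ran from 27.8 to 4304 CPM in CeA libraries and from 0 to 0.96 in mPFC. Spike-in RNA was found in 12 of the 53 libraries, each of a dependent mouse.

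Of the 16 matching genes outside the threshold, 6 were listed at 0 in all 53 libraries, namely Ndufa13, Ndufs3, Uqcrc1, Cox4i1, Atp5a1 and Cox8c. Uqcrc1, Cox4i1 and Atp5a1 encode a core subunit of complex III, the usual isoform of cytochrome oxidase subunit 4 and the alpha subunit of ATP synthase, which every cell uses, so a listing at 0 is not read as absence of the RNA. Just outside the threshold stood Cox6a2, at 4.45 CPM in CeA and 5.42 in mPFC, and Atp5h, at 4.42 and 5.97. Just inside it stood Atp5g2, at 6.86 and 6.33 CPM, and Ndufb4, at 9.86 and 13.6. Atp5o had 1.63 CPM in CeA and 60.8 in mPFC, but a second identifier of the same name overlaps it on the same strand and was counted only in CeA, so its value is uncertain.

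The 71 genes together took nearly equal shares of the libraries of both regions. Their summed share of gene counts was 0.828% ± 0.0503 (SD, n = 19) in CeA and 0.832% ± 0.0356 (SD, n = 34) in mPFC. In CeA the group means were 0.857%, 0.803%, 0.816% and 0.827% in the order given above, and in mPFC 0.837%, 0.836%, 0.825% and 0.831%. All 8 groups overlapped in this share. CeA library 17, from a non-dependent mouse on control diet, was the highest at 1.00%, and the other 5 of its group lay between 0.811% and 0.853%. The same library had the lowest summed share of the 13 listed mitochondrially encoded subunits in its group, 1.80% against a highest value of 2.27%.

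**Figure D1:**
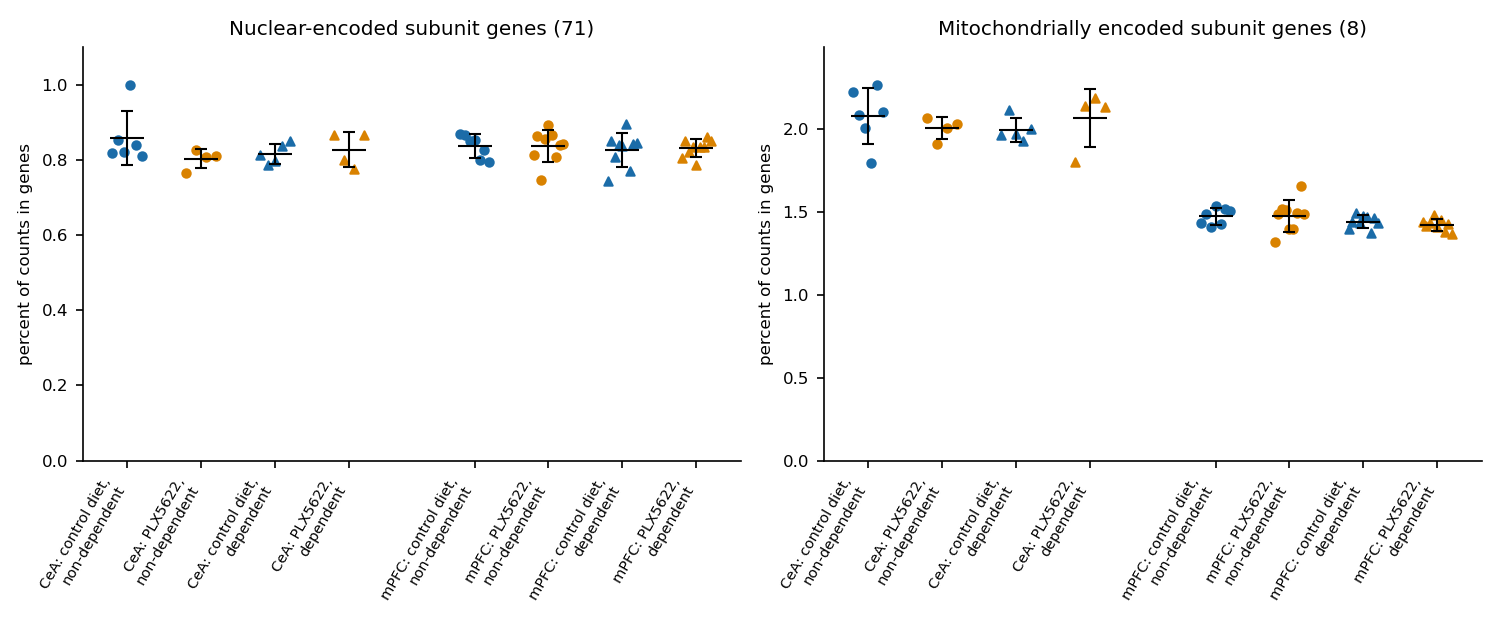
Share of gene counts, in percent, taken by the 71 nuclear-encoded subunit genes (left) and by mitochondrially encoded subunit genes (right) in each of 53 libraries, with the mean ± SD of each group (circles non-dependent, triangles dependent, blue control diet, orange PLX5622). The share on the right sums the 13 listed mitochondrially encoded genes, of which 8 had enough counts to be tested. The nuclear-encoded share overlaps between all groups, with 1 CeA library at 1.00%, while the mitochondrially encoded share is 2.04% ± 0.128 in CeA and 1.45% ± 0.0622 in mPFC.

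The first comparison asked whether PLX5622 altered the subunit genes. None of the 71 passed an adjusted p of 0.05 (edgeR's quasi-likelihood test, Benjamini-Hochberg over all genes tested) in the CeA of non-dependent mice, where 0.938% of 11721 genes did. None passed in the CeA of dependent mice, where 0.401% of genes did, nor in mPFC, where 0.624% of 12331 genes did in non-dependent mice and 0.908% in dependent mice. At an unadjusted p under 0.05, 1 member was higher and 2 were lower in CeA of non-dependent mice, where 4.96% and 4.11% of all genes were, and 1 was higher and 0 lower in CeA of dependent mice, where 2.36% and 3.08% of all genes were. In mPFC the counts were 2 and 0 in non-dependent mice, beside 2.41% and 2.98% of all genes, and 2 and 1 in dependent mice, beside 2.88% and 3.42%. DESeq2 also called 0 members in these comparisons.

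In the CeA of non-dependent mice the members' median log2 fold change with PLX5622 was -0.06, with 23 of 71 above 0, beside -0.01 for all genes. The smallest p-values belonged to Ndufa4, a subunit of complex IV despite its name, to Atp5j2, the f subunit of ATP synthase, and to Ndufs4, an accessory subunit of complex I whose loss causes an encephalopathy in mice. Ndufa4 stood at 66.4, 68.7 and 75.1 CPM (lowest, median, highest of 6) on control diet and at 43.5, 57.7, 64.1 and 64.5 CPM in the 4 libraries on PLX5622. All 4 PLX5622 libraries were below all 6 controls, 1 of them by far, and the log2 fold change was -0.27 ± 0.11 (SE), with an adjusted p of 0.358 in edgeR. How many of all genes separate in this way between these groups was not counted. Atp5j2 stood at 59.0, 62.5 and 82.1 CPM on control diet and at 51.4, 52.9, 53.4 and 58.4 on PLX5622, again without overlap, with a log2 fold change of -0.27 ± 0.11 and an adjusted p of 0.384 in edgeR. For Ndufs4 the log2 fold change was 0.19 ± 0.09, with an adjusted p of 0.498 in edgeR. The groups also differed in markers of tissue content. The 7 tested markers of central amygdala and striatal neurons had a median log2 fold change of -0.96, with 0 above 0. The 5 tested markers of choroid plexus and meninges had one of 0.85, with 5 above 0. None of these markers was called, and their part in the members' values was not tested.

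In the CeA of dependent mice the members' median was 0.05, with 45 of 71 above 0, and without PLX5622 library 6 it was 0.02. Atp5j2 pointed the other way there, with 50.3, 53.6, 55.2, 58.3 and 66.2 CPM on control diet and 64.8, 66.8, 69.4 and 72.3 on PLX5622. The highest control library lay inside the PLX5622 range, and the log2 fold change was 0.26 ± 0.11 with an adjusted p of 0.850 in edgeR. Uqcrc2, a core subunit of complex III, had a log2 fold change of 0.16 ± 0.08, and Atp5f1, the b subunit of the peripheral stalk that holds the head of ATP synthase in place, one of 0.18 ± 0.09.

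In mPFC the medians with PLX5622 were 0.00 in non-dependent mice, with 37 of 71 above 0, and 0.01 in dependent mice, with 39 above 0. Atp5s, a coupling factor that is not a fixed part of the enzyme, had the smallest p in non-dependent mice, at 16.7, 19.9 and 27.7 CPM (lowest, median, highest of 7) on control diet and 19.5, 26.8 and 29.7 (of 9) on PLX5622. The ranges overlapped, and the log2 fold change was 0.30 ± 0.11 with an adjusted p of 0.572 in edgeR. Ndufa10, an accessory subunit of the membrane arm of complex I, had a log2 fold change of -0.11 ± 0.06. In dependent mice the 3 smallest p-values were those of Atp5e, the epsilon subunit of the central stalk, at -0.14 ± 0.06, Ndufa6, at 0.13 ± 0.06, and Sdhb, the iron-sulfur subunit of complex II, at 0.12 ± 0.06, with adjusted p-values of 0.661, 0.708 and 0.755 in edgeR.

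The second comparison asked whether ethanol dependence altered the subunit genes. Again 0 of 71 passed the adjusted threshold of edgeR in any of the 4 comparisons, where 0.00853% of all genes did in CeA on control diet, 0.0171% in CeA on PLX5622, 0.00811% in mPFC on control diet and 0% in mPFC on PLX5622. At an unadjusted p under 0.05 the members higher and lower numbered 0 and 2 in CeA on control diet, beside 3.74% and 2.37% of all genes, and 5 and 3 in CeA on PLX5622, beside 2.93% and 3.02%. In mPFC they numbered 1 and 0 on control diet, beside 3.06% and 2.83% of all genes, and 0 and 1 on PLX5622, beside 3.13% and 2.77%. DESeq2 called 0 members in each.

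With dependence on control diet in CeA, the members' median log2 fold change was -0.03, with 24 of 71 above 0. Atp5f1 stood at 117.2, 127.4 and 139.3 CPM (lowest, median, highest of 6) in non-dependent mice and at 101.5, 106.5, 113.9, 115.3 and 124.4 in dependent mice. The ranges overlapped, and the log2 fold change was -0.19 ± 0.08 with an adjusted p of 0.767 in edgeR. Ndufb11, an accessory subunit of the membrane arm of complex I, gave -0.40 ± 0.20, and Atp5j2 gave -0.19 ± 0.10.

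With dependence on PLX5622 in CeA, the median was 0.07 and 51 of 71 members were above 0. Ndufa4 stood at 43.5, 57.7, 64.1 and 64.5 CPM in non-dependent mice and at 65.6, 72.1, 72.3 and 84.0 in dependent mice. The groups did not overlap, and the log2 fold change was 0.34 ± 0.12 with an adjusted p of 0.636 in edgeR. How many of all genes do not overlap between these groups was not counted. Atp5j2, with the values given above, also did not overlap between these groups and had a log2 fold change of 0.34 ± 0.12. Ndufs1, the large iron-sulfur subunit of complex I, had one of 0.23 ± 0.09, with an adjusted p of 0.751 in edgeR. Markers of central amygdala and striatal neurons had a median log2 fold change of 0.61 here, and those of choroid plexus and meninges one of -0.87. None of these markers was called, and their part in the members' values was not tested.

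In mPFC the medians with dependence were -0.01 on control diet and 0.00 on PLX5622, with 32 and 37 of 71 above 0. On control diet Atp5b, the catalytic beta subunit of ATP synthase, had a log2 fold change of -0.08 ± 0.04, and Ndufa10 one of -0.10 ± 0.06. On PLX5622 the smallest p-values were those of Ndufb2, an accessory subunit of complex I, at -0.31 ± 0.12, Atp5b, at -0.06 ± 0.04, and Ndufa4, at -0.11 ± 0.08. The lowest adjusted p among members in these mPFC comparisons was 0.703 in edgeR, for Ndufb2.

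The interaction of diet and dependence was not called for any member in edgeR in either region, nor for any gene at all, so the share of genes called was 0% in both. At an unadjusted p under 0.05, 4 members had a positive and 1 a negative interaction in CeA, beside 2.07% and 2.49% of all genes, and 1 and 0 did in mPFC, beside 1.44% and 1.44%. Atp5j2 had the smallest p, with an interaction of 0.53 ± 0.16 on the log2 scale and an unadjusted p of 0.00164, which became 0.871 after adjustment in edgeR. Its group means of 65.1 ± 8.51 (SD, n = 6), 54.0 ± 3.03 (SD, n = 4), 56.7 ± 6.03 (SD, n = 5) and 68.3 ± 3.27 CPM (SD, n = 4) were highest in the groups that had neither or both of PLX5622 and dependence. In CeA, markers of central amygdala and striatal neurons had a median interaction of 0.68, and those of choroid plexus and meninges one of -0.57. The part of these markers in the members' values was not tested. Without CeA library 17 the members' median interaction was 0.05 on the log2 scale, compared with 0.09 with it. Ndufs4 and Atp5f1 followed Atp5j2 in CeA, at -0.34 ± 0.12 and 0.33 ± 0.13, and Ndufa10 led in mPFC at 0.18 ± 0.08.

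**Figure D2:**
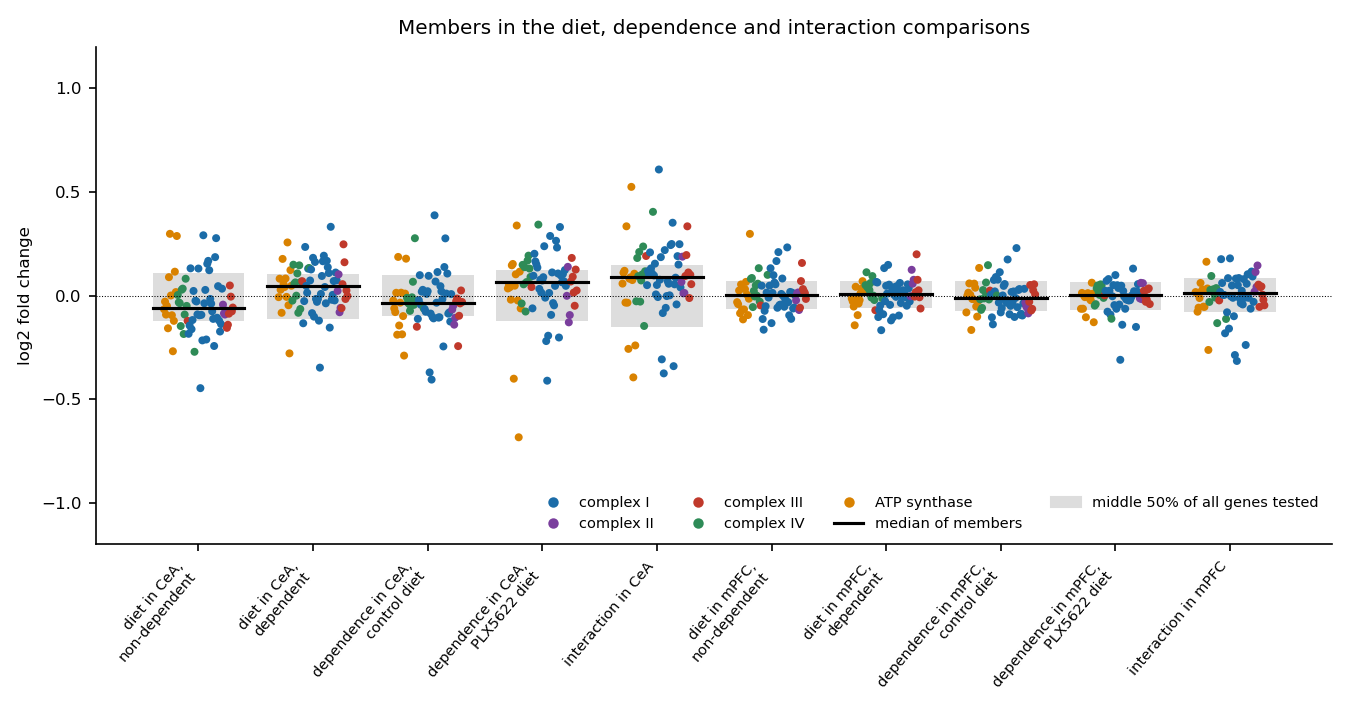
Log2 fold change of each of the 71 members (points, coloured by complex) in the 10 comparisons within a region, with the members' median (black line) and the middle 50% of all genes tested (grey). No point passed an adjusted p of 0.05, and the medians lie between -0.06 and 0.09.

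Among members taken as examples of each complex, the log2 fold changes of most stayed near 0 over the 8 effects of diet or dependence. Sdha, the flavoprotein of complex II, ranged from -0.07 to 0.02 on the log2 scale, and Uqcrfs1, the Rieske iron-sulfur protein of complex III, from -0.05 to 0.03. Atp5b ranged from -0.08 to 0.03, Cox8a, the ubiquitous isoform of a small complex IV subunit, from -0.05 to 0.09, and Cyc1, cytochrome c1, from -0.15 to 0.07. Ndufv1, which binds the flavin that accepts electrons from NADH, ranged from -0.17 to 0.07, Ndufs7, a core iron-sulfur subunit, from -0.11 to 0.11, and Sdhb from -0.09 to 0.14. The wider ranges of Ndufs1, from -0.11 to 0.23, and of Ndufa4, from -0.27 to 0.34, had both ends in CeA. The 3 genes for the same c ring protein, Atp5g1, Atp5g2 and Atp5g3, ranged from -0.17 to 0.19, -0.40 to 0.30 and -0.07 to 0.08. Over all members, 56 had an unadjusted p under 0.05 in none of the 8 effects, 10 in 1, and 5 in more than 1. The value furthest from 0 was that of Atp5l, the g subunit of ATP synthase, at -0.68 with dependence on PLX5622 in CeA, which was not called.

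In mPFC the 95% confidence interval of every member lay within 1.5-fold in either direction in all 4 effects of diet or dependence. In CeA, with fewer and shallower libraries, it lay so for 63 to 65 of the 71. Atp5g2, with a mean of 9.89 counts per CeA library, had the widest intervals. The median biological coefficient of variation of members was 7.81% in CeA and 6.11% in mPFC, below the 8.70% and 7.19% of all genes tested.

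Between the regions most subunit genes differed, in both directions. In the mean over the 4 groups of diet and history, 57 of 71 members (80.3%) were called by edgeR, where 68.3% of 13035 genes were, or 69.4% of those whose mean CPM reached 5. In CeA 26 members (36.6%) were higher and 31 (43.7%) lower, beside 33.5% and 34.9% of all genes. The members' median log2 fold change was -0.02, with 35 above 0 and 36 below. Furthest above 0 were Atp5e and Uqcr11, small subunits of ATP synthase and complex III, and furthest below were Sdhd, Ndufs1 and Uqcrfs1. The sets of libraries compared also differ in dissection, instrument and annotation release, from which the brain region cannot be told apart.

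**Figure D3:**
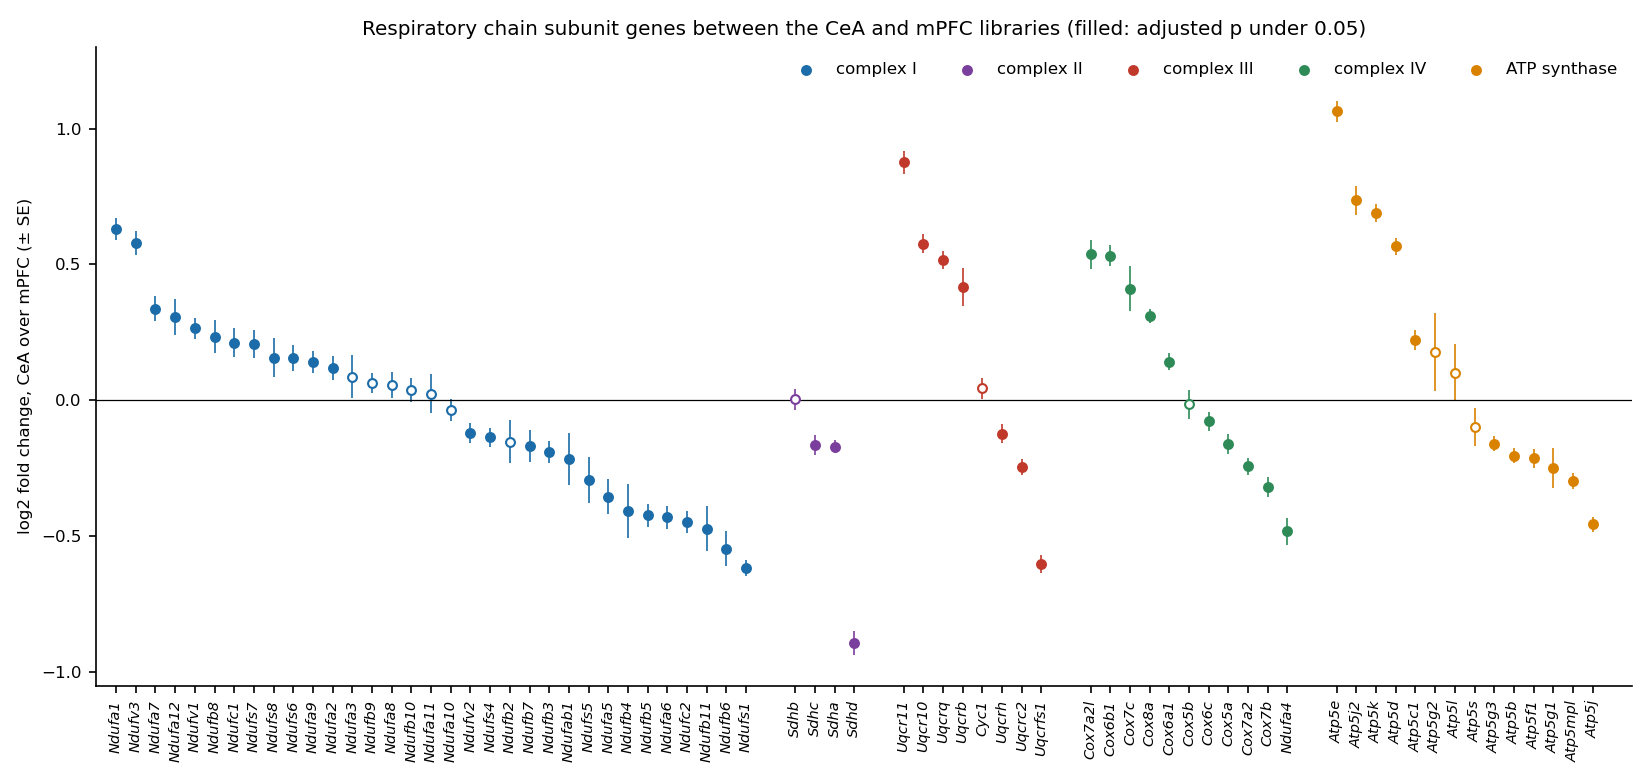
Log2 fold change of the members between CeA and mPFC libraries, all but 1 of the 71, with its standard error, by complex and ordered by size (filled points: adjusted p under 0.05). Values run from -0.89 for Sdhd to 1.06 for Atp5e, and complexes I, III, IV and ATP synthase each hold members on both sides of 0.

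Of the head and central stalk of ATP synthase, 3 members were higher in CeA and 1 was lower. Atp5e (ENSMUSG00000016252; chr2:174461072-174464105, minus strand, GRCm38) ran from 170 to 241 CPM with a median of 203 in the 19 CeA libraries and from 81.3 to 121.7 with a median of 95.6 in the 34 mPFC libraries. No CeA library came down to the mPFC range, and the log2 fold change was 1.06 ± 0.04 (SE), or 2.09-fold, with an adjusted p of 4.66e-39 in edgeR. Atp5d, the delta subunit of the same stalk, was also without overlap, at 359 ± 36.0 against 242 ± 14.5 CPM, or 1.48-fold higher. Atp5c1, the gamma subunit that turns inside the head, was higher by 0.22 ± 0.04 on the log2 scale, while Atp5b, the catalytic subunit, was lower, at -0.20 ± 0.03.

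The membrane part of ATP synthase was split. Atp5j2 ran from 50.3 to 82.1 CPM in CeA and from 24.5 to 43.9 in mPFC, and Atp5k, the e subunit that helps the enzyme form dimers, from 411 to 704 and from 273 to 351. Neither overlapped, and their log2 fold changes were 0.74 ± 0.05 and 0.69 ± 0.03. Atp5mpl, a small subunit of the membrane part, was lower in CeA, at -0.30 ± 0.03 and Atp5l was not called. In the peripheral stalk, Atp5j was lower without overlap, at 196 to 265 CPM in CeA against 287 to 366 in mPFC, with a log2 fold change of -0.46 ± 0.03, and Atp5f1 was lower, at -0.21 ± 0.04. In the c ring Atp5g1 and Atp5g3 were lower, at -0.25 ± 0.07 and -0.16 ± 0.03, and Atp5g2 had a log2 fold change of 0.18 ± 0.14 that was not called, with an adjusted p of 0.275 in edgeR.

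Of the 5 small subunits of complex III, 4 were higher in CeA and 1, Uqcrh, lower, and of its 3 catalytic and core subunits none was higher and 2 were lower. Uqcr11 (ENSMUSG00000020163; chr10:80402997-80406830, minus strand, GRCm38) ran from 118.5 to 187 CPM in CeA with a median of 138.7 and from 64.6 to 89.2 with a median of 76.2 in mPFC. The ranges did not meet, and the log2 fold change was 0.88 ± 0.04 with an adjusted p of 4.63e-32 in edgeR. Uqcr10 and Uqcrq were also without overlap, at log2 fold changes of 0.58 ± 0.03 and 0.52 ± 0.03. Uqcrfs1, which carries electrons from quinol to cytochrome c1, ran from 129 to 180 CPM in CeA and from 192 to 267 in mPFC, again without overlap, a log2 fold change of -0.60 ± 0.03. Uqcrc2 was lower, at -0.24 ± 0.03, and Cyc1 was not called, at 0.04 ± 0.04.

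In complex II, 3 of 4 members were lower in CeA and none was higher. Sdhd (ENSMUSG00000000171; chr9:50596357-50603812, minus strand, GRCm38), a membrane anchor of the enzyme, ran from 43.6 to 60.1 CPM with a median of 55.7 in CeA and from 71.6 to 112.9 with a median of 99.8 in mPFC. Every CeA library was below every mPFC library, and the log2 fold change was -0.89 ± 0.04, so that the mPFC level was 1.86-fold the CeA level, with an adjusted p of 1.29e-30 in edgeR. Sdhc, the other anchor, and Sdha were lower by less, at -0.16 ± 0.04 and -0.17 ± 0.02. Sdhb did not pass the test, at 84.9 ± 7.77 CPM (SD, n = 19) in CeA and 84.5 ± 6.98 (SD, n = 34) in mPFC.

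Complex I, the largest enzyme of the chain, had 12 members higher and 14 lower. Of its 6 core subunits, 3 were higher in CeA (Ndufv1, Ndufs7 and Ndufs8) and 2 lower (Ndufs1 and Ndufv2). Ndufs8 lay just inside the threshold, with an adjusted p of 0.0497 in edgeR, and lost its call under some alternatives. Ndufs1 (ENSMUSG00000025968; chr1:63143596-63176833, minus strand, GRCm38) ran from 101.8 to 141.8 CPM in CeA with a median of 116.4 and from 158 to 206 with a median of 185 in mPFC. The regions did not overlap, and the log2 fold change was -0.62 ± 0.03 with an adjusted p of 8.46e-31 in edgeR. Ndufv1, whose product lies next to that of Ndufs1 in the arm that takes up NADH, was higher by 0.27 ± 0.04, and Ndufv3, of the same arm, by 0.58 ± 0.04.

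Of 12 Ndufa members, accessory subunits of complex I, 5 were higher and 3 lower in CeA, led by Ndufa1, which ran from 199 to 394 CPM in CeA and from 140.8 to 191 in mPFC, a log2 fold change of 0.63 ± 0.04. Ndufa6 was lower, at -0.43 ± 0.04. Of 10 Ndufb members, whose products sit in the membrane arm, 1 was higher and 6 were lower. The one that was higher was Ndufb8, at 0.23 ± 0.06, and the lower ones reached -0.55 ± 0.06 for Ndufb6, with Ndufb11 at -0.47 ± 0.08 and Ndufb5 at -0.42 ± 0.04. Of the 6 other accessory subunits 3 were higher and 3 lower, among them Ndufc2 at -0.45 ± 0.04.

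In complex IV 5 members were higher in CeA, 5 were lower and Cox5b was not called. Cox6b1, which faces the intermembrane space, was higher without overlap, at 132.9 to 184 CPM against 86.3 to 128.9, a log2 fold change of 0.53 ± 0.04. Cox8a was also without overlap, at 600 to 734 CPM in CeA against 447 to 574 in mPFC, although the log2 fold change was only 0.31 ± 0.03. Ndufa4 had the lowest log2 fold change of the complex, with 66.9 ± 7.95 CPM in CeA and 92.5 ± 11.4 in mPFC with overlapping libraries, a value of -0.48 ± 0.05. Of the pair with related sequences, Cox7a2l, which helps join complexes III and IV into supercomplexes, was higher by 0.54 ± 0.05 and Cox7a2, a subunit of complex IV itself, lower, at -0.24 ± 0.03.

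**Figure D4:**
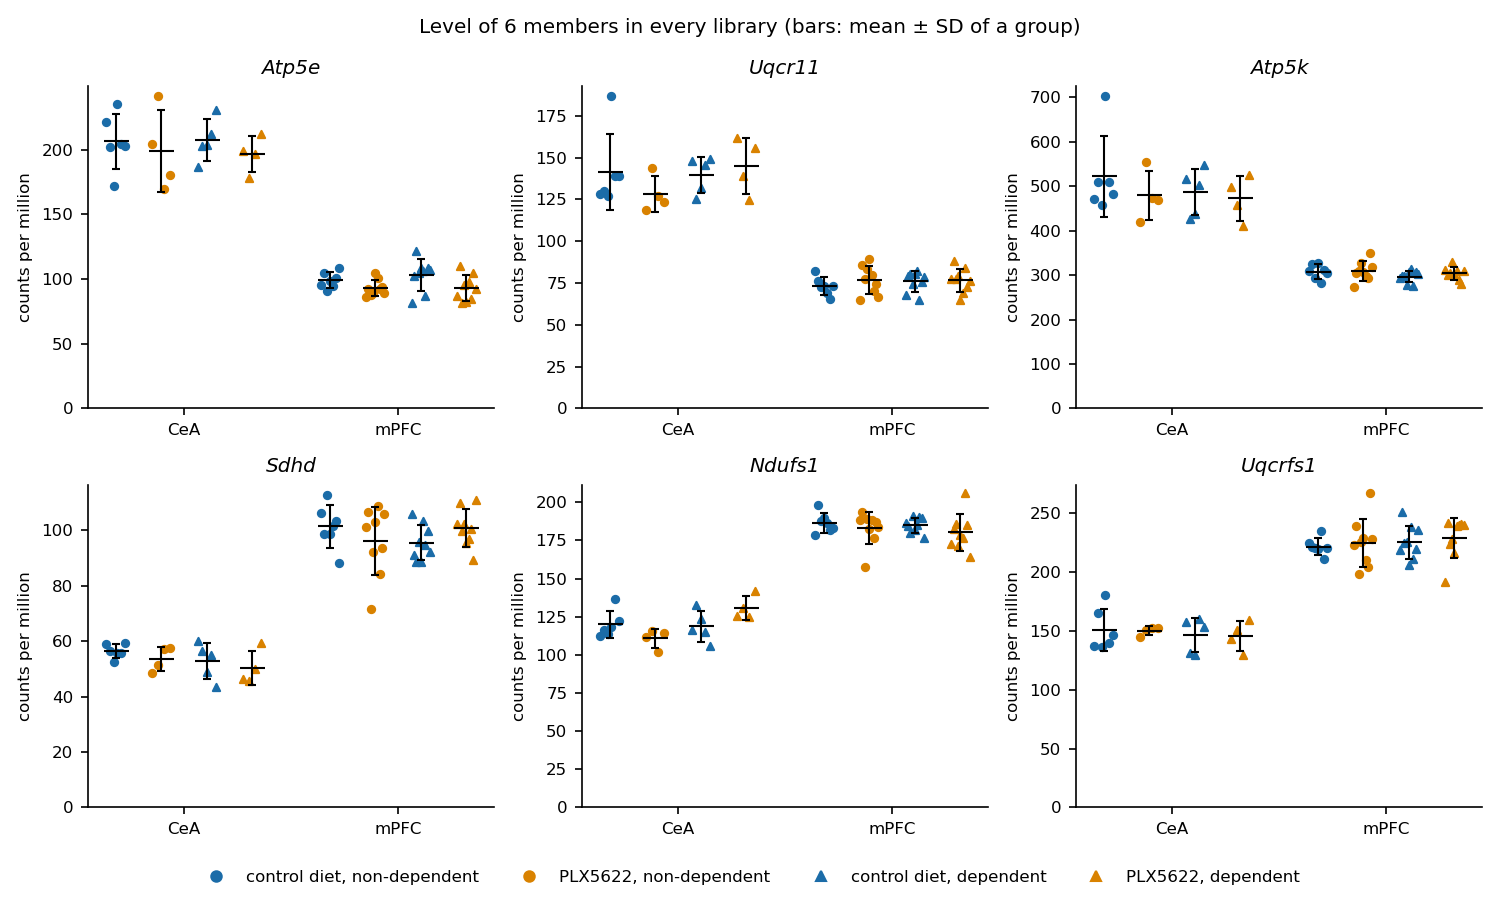
Scaled CPM of 6 members in every library of the 8 groups, with the mean ± SD of each group. Atp5e, Uqcr11 and Atp5k are higher in every CeA library than in any mPFC library, and Sdhd, Ndufs1 and Uqcrfs1 are lower, whatever the diet or drinking history.

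Across the whole set, 10 members (14.1%) had every CeA library above every mPFC library and 4 (5.63%) had every one below, where 3.86% and 3.73% of all genes tested did. Levels in the background were not matched to those of the members. The 10 were Atp5e, Uqcr11, Atp5j2, Atp5k, Ndufa1, Uqcr10, Atp5d, Cox6b1, Uqcrq and Cox8a, and the 4 were Sdhd, Ndufs1, Uqcrfs1 and Atp5j. Differences of 1.5-fold or more were held by 5 members (7.04%) in the higher direction and 3 (4.23%) in the lower, below the 11.8% and 8.60% of all genes tested. Within each of the 4 groups of diet and history taken alone, 14 members (19.7%) were called higher every time and 15 (21.1%) lower every time, beside 13.3% and 13.9% of all genes. The difference in Atp5e was at least 1.01 on the log2 scale in each of the 4 groups, and that in Sdhd was -0.85 or further below 0.

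The CeA libraries varied in how much choroid plexus RNA they held. CeA library 11 of dependent mice on control diet had 27.8 CPM of Ttr, the least of all, and 231 CPM of Atp5e, 149.1 of Uqcr11 and 43.6 of Sdhd. The library with most Ttr, 4304 CPM, had 241, 143.7 and 51.4 CPM of the same genes. These are only the ends of the order by Ttr. Uqcr11 ran from 145.3 to 186.7 CPM in libraries with up to 1093 CPM of Ttr, and from 118.5 to 155.6 in those with 1274 or more. The libraries with up to 1093 CPM of Ttr were 11, 9, 17, 6 and 1. Library 17 had the 186.7 CPM, and the others held spike-in RNA, so Ttr cannot be told apart from these traits. For Atp5e these ranges were 186.7 to 235.7 and 169.7 to 241.2 CPM, and for Sdhd 43.6 to 60.1 and 45.6 to 59.5. Markers of oligodendrocytes also took more of the CeA libraries, 0.275% ± 0.0625 (SD, n = 19) of gene counts against 0.156% ± 0.0216 (SD, n = 34), and all 6 of them were higher in CeA. The part of this in the members' differences was not tested.

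Members that were higher in CeA had shorter transcripts and more G and C near their ends. The median transcript was 649 bases for the 26 higher members and 908 for the 31 lower ones, and the median share of G and C in the last 300 bases was 50.5% and 40.3%. All 5 members with a transcript under 500 bases, Atp5e, Atp5k, Ndufa1, Uqcr10 and Uqcr11, were higher in CeA, and of all 37 genes tested with a transcript so short, 54.1% were higher and 13.5% lower. Over the 71 members the Spearman correlation of the regional log2 fold change with transcript length was -0.32, and with the G and C share of the last 300 bases 0.56. Over the 11874 genes tested with a protein-coding transcript these were 0.01 and 0.26. Genes share libraries and are not independent, so these values are descriptions. The part that length and base composition play in the regional differences was not tested.

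**Figure D5:**
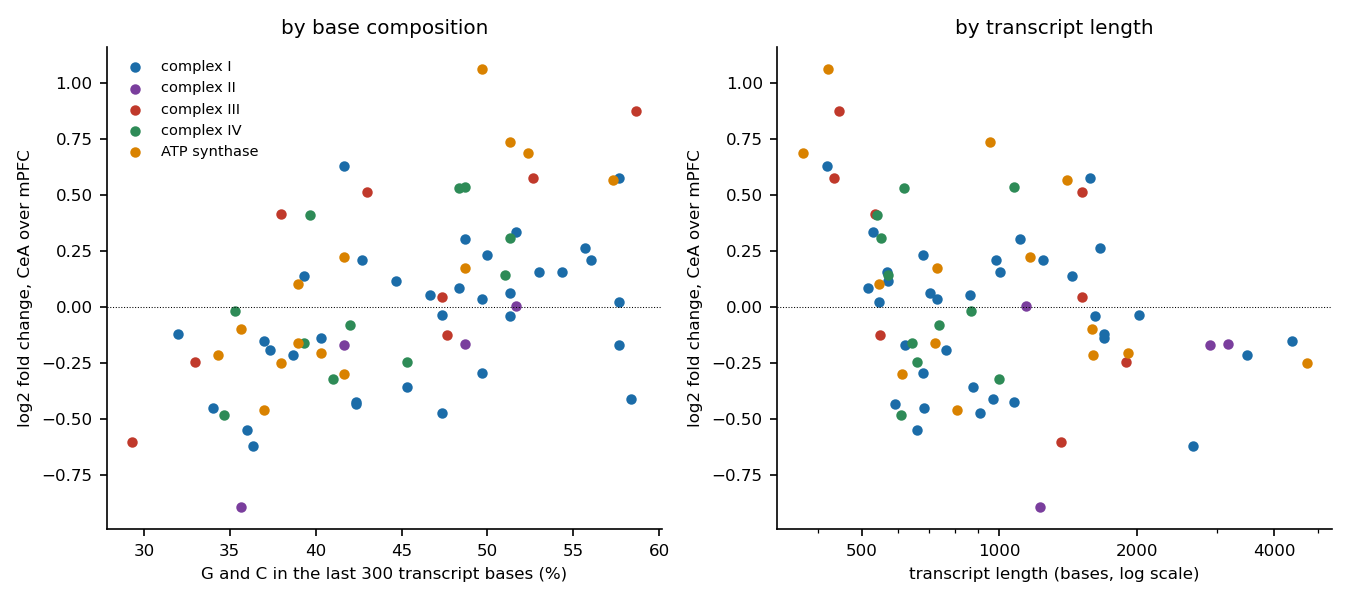
Regional log2 fold change of each of the 71 members against the share of G and C in the last 300 bases of its transcript (left) and the length of the transcript on a log scale (right), coloured by complex. Spearman's rho is 0.56 on the left and -0.32 on the right, and the 5 members with transcripts under 500 bases all lie above 0.

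Overlapping genes could add reads to a member or cost it reads if counting ignored strand, a setting that no source used here states. The exons of 48 members are clear of any other gene on either strand in GENCODE M21. Of these, 20 were higher and 21 lower in CeA. That release held 55480 of the 56350 identifiers counted in CeA and 53706 of the 54547 counted in mPFC. Overlap with counted genes outside it was not checked. The last 500 exonic bases of Uqcrc2 lie wholly within exons of Pdzd9 on the opposite strand, and its value is uncertain for that reason. Of the same stretch, 53.8% in Cox5a, 51.4% in Ndufb6 and 50% in Cox6c lies in exons of a gene on the opposite strand. Exons of Ndufs1, Atp5d, Atp5j and Ndufb5 also meet such a gene, but outside their last 500 exonic bases.

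The promoters of these genes were searched for motifs of factors known to drive respiratory genes, since many members differed between regions. A window from 250 bases before to 50 after the start was found in RefSeq (GRCm38.p6) for 58 of 71 members and for 32851 promoters in all, and each motif was sought on both strands. The nuclear respiratory factor 1 motif, a palindrome printed in capitals in its windows, was in 4 member windows (6.90%), and in 0.971% of all windows. With its only T replaced by any base, a form that includes the first, it was in 13 (22.4%) and in 4.60%. The YY1 motif AAGATGGCG was in 6 (10.3%) and in 1.40% of all windows, and the estrogen-related receptor motif TCAAGGTCA was in 2 (3.45%) and in 0.423%. The ETS motif CCGGAAGT was in 3 (5.17%) against 3.89%, the Sp1 motif GGGCGG in 23 (39.7%) against 35.7%, and TATAAA in 5 (8.62%) against 13.6%.

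The 6 windows with the YY1 motif are shown because 5 of them belong to members that were higher in CeA and the last to Ndufs4, which was lower. Windows were found for 23 higher members, 25 lower ones and 10 that were not called. Regional calls of all genes with the motif were not counted, and Ndufs6 lost its call under at least 1 alternative. The motif, in capitals, begins 22 to 35 bases after the annotated start in each of the 6 windows.
Atp5j2: aggacttcAAGATGGCGtcactcgg
Ndufa9: tgtgggagAAGATGGCGgccgccgt
Ndufc1: tgcggaacAAGATGGCGccgtccgt
Ndufs6: tcaccggcAAGATGGCGgcggtgct
Ndufs7: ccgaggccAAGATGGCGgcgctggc
Ndufs4: cctacaggAAGATGGCGgcggtc
They lie at chr5:145191502-145191526, chr6:126849099-126849123, chr3:51408917-51408941, chr13:73328433-73328457, chr10:80249465-80249489 and chr13:114388045-114388067 of GRCm38.p6, on the minus strand except for Ndufs7, which is on the plus strand. A match is only a run of letters and not a site shown to be bound.

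The 4 windows with the full nuclear respiratory factor 1 motif, again in capitals, are shown because none of the 25 members lower in CeA that had a window held it, while 2 of 23 higher members and 2 of 10 that were not called did.
Atp5k: tcactgcgGCGCATGCGCctttctgg
Cox6a1: ggaacgggGCGCATGCGCgctctcgc
Ndufa11: tgcactgcGCGCATGCGCgcacgcct
Atp5g2: ctccggccGCGCATGCGCagagcctt
They lie at chr5:108434432-108434457 (minus), chr5:115349103-115349128 (minus), chr17:56717694-56717719 (plus) and chr15:102671072-102671097 (minus). With that T free the motif was in 7 windows of lower members and 3 of higher ones, so the order between directions turned with the spelling of the motif.

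Genes that build, feed or parallel the chain were read in the same fits. No gene of the lists of mitochondrially encoded subunits, assembly factors, tricarboxylic acid cycle enzymes, regulators of mitochondrial gene expression, glycolysis enzymes, inner membrane carriers, cytosolic ribosomal proteins or mitochondrial ribosomal proteins was called by edgeR for diet, dependence or their interaction. Between regions all 8 mitochondrially encoded subunits tested of 13 listed were higher in CeA, with a median log2 fold change of 0.54, beside 0.00 for all genes. The values were 0.77 ± 0.03 for mt-Nd4 and 1.83 ± 0.05 for mt-Nd3, both subunits of complex I, and 0.55 ± 0.03 for mt-Cytb, the cytochrome b of complex III. Glycolysis enzymes were mostly higher, 11 of 14 with 2 lower, among them Pkm at 0.78 ± 0.03 and Aldoa at 0.65 ± 0.03.

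Enzymes of the tricarboxylic acid cycle were mostly lower in CeA, 12 of 18 with 3 higher, among them Dld at -0.67 ± 0.04 and Pdhb at -0.58 ± 0.04, both parts of the pyruvate dehydrogenase complex, while Idh3g was higher by 1.21 ± 0.07. Of 42 assembly factors 20 were lower and 5 higher, with Ndufaf4, needed for complex I, at -0.50 ± 0.05 and Cox17, the copper carrier of complex IV, at 1.22 ± 0.08. Of 19 regulators 7 were higher and 6 lower. Ppargc1a, the coactivator that induces respiratory genes, was lower, at -0.58 ± 0.04 and its partner Esrra by -0.84 ± 0.07, whereas Slirp and Lrpprc, which stabilise mitochondrial mRNAs, were higher by 1.04 ± 0.06 and 0.32 ± 0.05. Of 70 mitochondrial ribosomal proteins 20 were higher and 26 lower. Of 24 genes in the list of inner membrane carriers 6 were higher and 12 lower, and of 59 cytosolic ribosomal proteins 22 were higher and 12 lower. Among the lower ribosomal genes, Mrps6 stood at -8.67 ± 0.22 and Rps10 at -7.35 ± 0.33. The part of annotation release in such values was not tested. Beside the counts of all these lists, 33.5% of all genes tested were higher in CeA and 34.9% lower. The medians were -0.15 for the cycle enzymes, 0.29 for glycolysis and -0.08 for the mitochondrial ribosome, beside -0.02 for the members.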

How the data were processed

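Each library has 1 table of counts, as deposited by the authors, with 1 row per Ensembl gene. The submitters' processing notes name mm10 (GRCm38.p6) and these tools: HTSeq 0.11.0, Bowtie2 2.3.4.3, FastQC 0.11.8, R 3.5.1 and DESeq2 1.10.1. Whether strand was used or duplicates removed is not stated there. Of the identifiers counted, 56350 for CeA and 54547 for mPFC, 54393 are shared, and GENCODE M21 gave symbols for 55480 and 53706. Of the reads, 71.6% to 75.5% lay in genes, and the remainder and spike-in entries stayed out.

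Counts were tested in R 4.3.3 with edgeR 4.0.16 (TMM, filterByExpr with a minimum count of 10, robust quasi-likelihood F test, two-sided, Benjamini-Hochberg over all genes tested, called under 0.05), with the 4 groups of a region in 1 fit and all 8 groups in the regional fit. DESeq2 1.42.0 was an alternative. Intervals are at 95%. The procedure was tested on simulated data. The labels number mice but do not state that a number is the same mouse in both regions. Libraries within a group differed beyond sampling noise in all 166 pairs.

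Members and lists were chosen with earlier results of these data known. Named in each comparison are up to 8 members called in each direction with the smallest p, otherwise the 3 with the smallest p, and fixed examples of each complex. Further members and list genes were named after their values were seen. Values of 1 member are not reported here, although it is counted among the 71.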

Additional observations from a re-analysis of the deposited data

Results flagged for a closer look

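A library was set apart where its gap to the nearest of its group exceeded Dixon's 95% limit for the group's range. Of 584 groups of values checked, for 71 members and the summed shares, 33 (5.65%) held such a library, where chance gives about 1 in 20.

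In CeA, library 17 of the non-dependent mice on control diet was set apart as the highest of its 6 in 6 members and in the summed share of all members, 1.000%. It had 393.8 CPM of Ndufa1 (next 293.9), 186.7 of Uqcr11, 704.0 of Atp5k (next 509.6), 82.07 of Atp5j2 (next 64.21), 88.09 of Ndufa6 (next 72.12) and 108.4 of Ndufb3 (next 79.74). In the same group library 20 had the highest Ndufa4, 75.09 CPM, and library 15 the lowest Ndufb6, 10.37.

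Library 13 of CeA (PLX5622, non-dependent) was the lowest in Atp5d, 315.2 CPM, and Atp5f1, 97.62, and library 23 stood apart in Ndufv2, 116.7. In dependent CeA mice on PLX5622, library 29 had the lowest Sdha, 322.2 CPM, library 8 the highest Cyc1, 128.2, library 7 stood apart in Sdhc, 91.14, and Cox7a2, 199.5, and library 6 had the lowest mitochondrially encoded share, 1.805%. In dependent CeA mice on control diet library 1 had 26.79 CPM of Ndufb11, and the next 14.05.

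In mPFC, library 21 (PLX5622, non-dependent) was the lowest of 9 in Ndufs1, 157.7 CPM, Sdha, 327.4, Atp5f1, 114.9, Atp5j, 287.3, Atp5g3, 272.1, and Cox7b, 140.4. In the same group library 23 had the highest Cox5b, 54.62 CPM, and library 47 the highest Atp5g2, 12.90. Among non-dependent mice on control diet library 17 had the highest Ndufv1, 105.98 CPM, and Ndufa4, 113.8, library 34 the lowest Ndufa1, 140.8, and library 36 the highest Cox7a2l, 39.37. Among dependent mice on control diet library 11 stood apart in Uqcrq, 213.1 CPM, and Sdhc, 133.4, and library 1 in Ndufb7, 34.11.

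Spike-in RNA, which no comparison used, had up to 32416 counts in the libraries that held it and at most 316 in the others.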

How the results depend on the processing

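No member was called for diet, dependence or their interaction with DESeq2, DESeq2 size factors in edgeR, no filter on low counts, a minimum mean CPM of 5, without the spike-in libraries, or with any single library left out, nor for diet or dependence with only the 2 groups compared (where 70 or 71 members could be tested), which cannot give an interaction. Between regions, 55 members were called with DESeq2, 55 with its size factors, 56 with no filter, 55 at a mean CPM of 5, 52 without the spike-in libraries and 53 with mouse number as a replicate block, and 53 to 57 with 1 library left out. None of the 57 reversed. Under those alternatives 50 kept their call, and Cox6c, Ndufa2, Ndufab1, Ndufb7, Ndufs5, Ndufs6 and Ndufs8 lost it under at least 1. Libraries with the same mouse number in both regions correlated between -0.0356 and 0.0792 in their deviations over 15 pairs. Such values cannot tell whether a number is the same mouse in both regions, which were dissected and sequenced differently. On control diet the library with the highest summed share of members was number 17 in both regions in non-dependent mice and number 11 in dependent mice. On PLX5622 it was number 23 in both regions in non-dependent mice, but 29 in CeA and 39 in mPFC in dependent mice. Number 16 was on control diet in CeA and on PLX5622 in mPFC and was not taken as a pair. Within a region the groups share no mouse number, and no paired analysis was possible because of that. In CeA, without library 17 (control diet, non-dependent), the members' median with PLX5622 in non-dependent mice was -0.02 in place of -0.06, with dependence on control diet -0.01 in place of -0.03 (-0.05 without library 16 of that group), and in the interaction 0.05 in place of 0.09. Without PLX5622 library 6 the median in dependent mice was 0.02 in place of 0.05. Leaving out the spike-in libraries keeps 1 CeA library of dependent mice on PLX5622, assumed to vary like the other groups, and 2 on control diet. There the median with PLX5622 in dependent CeA mice was 0.11 in place of 0.05, with dependence on control diet -0.08, and in the interaction 0.15, where Atp5j2 stood at 0.74 in place of 0.53. The cause was not tested. Over all genes, those called for PLX5622 in non-dependent and dependent mice went from 110 and 47 to 239 and 94 in CeA, and in mPFC 180 and 228 were called, with no filter, in place of 0.624% and 0.908% of 12331 genes. At a mean CPM of 5 the mPFC counts were 50 and 72. In CeA, 21 were called in dependent mice without the spike-in libraries, with that 1 PLX5622 library. The 2 groups alone gave 63 and 74 in mPFC, and 75 and 40 in CeA. With dependence, the counts with no filter were 18 and 10 in CeA and 10 and 8 in mPFC, in place of 1, 2, 1 and 0. Depth limits Atp5g2 and other members with few counts in CeA.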

Other observations

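Outside the threshold, Cox8b and Cox6b2, tissue-restricted isoforms of complex IV subunits, were higher in CeA, by 3.81 ± 0.28 and 1.86 ± 0.22 on the log2 scale with adjusted p-values of 2.19e-17 and 1.74e-11 in edgeR. Cox8b ran from 0.525 to 52.7 CPM in the 19 CeA libraries and from 0 to 2.11 in the 34 mPFC libraries. Over the CeA libraries its level moved with that of the choroid plexus marker Ttr. The 2 libraries with least Ttr, 27.8 and 83.8 CPM, had 0.525 and 0.655 CPM of Cox8b, inside the mPFC range, and the library with most, 4304 CPM, had 52.7. Library 2 of dependent mice on control diet, the next in Ttr at 2496 CPM, had only 5.72. Pearson's r was 0.88 (permutation p 1e-05, the smallest that 100000 permutations can give, adjusted 2e-05 over 2 relations) and Spearman's rho 0.77 (permutation p 0.00024, adjusted 0.00048). Without the 2 libraries farthest from the median of Ttr, r was 0.73 and rho 0.68, and after removal of group means r was 0.84. For Cox6b2, r was 0.76 (permutation p 0.00047, adjusted 0.00047) and rho 0.58 (permutation p 0.0103, adjusted 0.0103). Without the 2 farthest libraries r was 0.55 and rho 0.46. The pair was chosen after their values were seen, and the cause was not tested.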
